A study of Mus musculus with 4 samples.

Results

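The vascular endothelial growth factor (VEGF) family was followed here through the cells of mouse popliteal vessels. The genes were taken by name from the lists of features: 5 ligands (Vegfa, Vegfb, Vegfc, Vegfd and the placental growth factor Pgf), 3 receptor tyrosine kinases (Flt1, Kdr and Flt4) and 2 neuropilin co-receptors (Nrp1 and Nrp2). All 10 were found among 32286 genes, and the rule for choosing them uses no measured value. Single-cell RNA was captured by its 3′ ends, and each molecule was counted by its unique molecular identifier (UMI). There were 2 libraries of popliteal lymphatic vessels (PLV replicate 1 and PLV replicate 2), each from a separate pool of 2 adult mice, and 1 library from a further pool of 2 mice in which cells of popliteal lymphatic and blood vessels were combined, called the mixed library. All mice carried a Wt1 knock-in of EGFP and Cre (WT1GFPCre, Wt1tm1(EGFP/cre)Wtp/J) together with the Cre-dependent tdTomato reporter Ai9-tdT, and received Evans blue in the footpad before dissection; all libraries share these alleles. PLV vessels were digested for 30 minutes with collagenase I, Dispase II, DNase and Liberase, and the mixed vessels for 60 minutes with collagenase I and Dispase II. Vessel, digestion and mice therefore changed together, and their parts in any difference between PLV and mixed libraries cannot be told apart. The question followed was which vessel cells held transcripts of VEGF ligands and which held their receptors.

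VEGF ligands are secreted dimers that bind receptor tyrosine kinases on endothelial cells. VEGF-A acts mainly through Kdr, which drives endothelial growth and permeability, and also binds Flt1, a high-affinity receptor that can act as a decoy; Pgf and VEGF-B bind Flt1. VEGF-C and VEGF-D act through Flt4, the receptor on which lymphatic vessel growth depends. Neuropilins have little signalling activity of their own; Nrp1 is a co-receptor for VEGF-A and for class 3 semaphorins, and Nrp2 is a co-receptor that lymphatic endothelium is known to use with VEGF-C.

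After filtering, 1909, 516 and 994 cells were kept in the first and second PLV replicate and the mixed library, with 9577642, 3390010 and 7770796 UMIs and medians of 3372, 4886.5 and 6162 UMIs per cell. The libraries shared 0 cell barcodes. Clusters were named from marker genes with the VEGF and pathway genes left out, and gave 7 classes in each library: lymphatic endothelial-like (LEC-like; 192, 72 and 54 cells), blood endothelial-like (BEC-like; 296, 68 and 180), muscle-like (426, 110 and 314), pericyte-like (44, 28 and 62), fibroblast-like (401, 88 and 286), Schwann-like (234, 53 and 38) and immune (212, 37 and 30). Every naming marker of the 6 classes other than immune was detected in its own class in each library, except that 2 of 6 lymphatic markers, Lyve1 and Ccl21a, were at 0 in the LEC-like cells of the mixed library. Levels are in CPM (UMIs per 1000000 UMIs of the class) and are given in the order PLV replicate 1, PLV replicate 2, mixed library unless stated; means are ± SD over these 3 libraries. UMIs from 3′ ends do not allow levels of different genes to be compared, so each gene is compared only with itself. Free RNA was measured in 185412 droplets below 50 UMIs from the mixed library, where the 10 genes lay between 2.00 CPM (Vegfc) and 67.0 CPM (Nrp1). These values give the make-up of free RNA and not how much of it lies within a cell, which was not measured. They are set beside low levels for comparison only. A level below free RNA is shown neither to be background nor to be the cell's own.

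The genes lie on separate chromosomes except for 2 pairs. On GRCm38, with GENCODE gene models, Flt1 (chr5:147561604-147726011) and Kdr (chr5:75932827-75978458) are both on the minus strand, and Vegfc (chr8:54077606-54187096) and Nrp1 (chr8:128358604-128503363) are both on the plus strand. Vegfa (chr17:46016993-46032369), Vegfb (chr19:6982473-6987651) and Pgf (chr12:85166635-85177790) are on the minus strand. Vegfd (chrX:164373378-164402650), Flt4 (chr11:49609263-49652739) and Nrp2 (chr1:62703285-62818695) are on the plus strand. Nrp2 overlaps the antisense gene Gm29083 and, on its own strand, the model Gm37121, and Nrp1 overlaps Mir1903. The strand setting of the counting was not given in the sources used here. Whether reads of the overlapping genes entered the Nrp2 counts was not checked.

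Upstream sequence is shown for both receptors of VEGF-A and for the ligands Vegfa and Vegfc, because their levels set the cell classes below apart and their windows lie before the gene's start. Each is the 250 bases before the start from RefSeq (GRCm38.p6; 10 of 10 genes matched), written on the gene's strand. Capitals mark GGAA or its complement TTCC, the core that ETS-family factors bind, and GGGCGG or its complement CCGCCC, the GC box. Both strands were searched, and the motifs can share bases where they adjoin. The windows are Flt1 at chr5:147726012-147726261, Kdr at chr5:75978456-75978705 (3 of its bases inside the GENCODE gene), Vegfa at chr17:46032378-46032627 and Vegfc at chr8:54077282-54077531.
Flt1: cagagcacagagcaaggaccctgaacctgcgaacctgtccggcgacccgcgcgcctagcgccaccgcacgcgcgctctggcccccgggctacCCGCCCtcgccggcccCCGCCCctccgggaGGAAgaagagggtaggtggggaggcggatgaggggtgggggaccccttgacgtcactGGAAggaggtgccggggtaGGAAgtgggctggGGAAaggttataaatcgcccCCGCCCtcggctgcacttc
Kdr: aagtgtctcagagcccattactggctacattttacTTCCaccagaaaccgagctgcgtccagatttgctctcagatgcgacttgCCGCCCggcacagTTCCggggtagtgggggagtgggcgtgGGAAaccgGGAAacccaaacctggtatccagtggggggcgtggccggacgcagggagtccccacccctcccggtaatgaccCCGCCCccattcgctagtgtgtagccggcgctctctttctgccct
Vegfa: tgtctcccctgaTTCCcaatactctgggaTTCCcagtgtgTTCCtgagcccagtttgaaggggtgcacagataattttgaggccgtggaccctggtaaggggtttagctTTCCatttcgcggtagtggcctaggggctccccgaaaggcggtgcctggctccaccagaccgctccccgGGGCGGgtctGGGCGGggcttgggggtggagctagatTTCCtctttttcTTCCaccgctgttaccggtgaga
Vegfc: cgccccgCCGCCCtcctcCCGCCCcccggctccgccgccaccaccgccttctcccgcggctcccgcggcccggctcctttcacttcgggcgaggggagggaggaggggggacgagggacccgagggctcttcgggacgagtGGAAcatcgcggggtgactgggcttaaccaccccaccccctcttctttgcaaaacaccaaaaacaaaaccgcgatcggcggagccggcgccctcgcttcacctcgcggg
Flt1 and Kdr each held 4 copies of the ETS core, Vegfa held 6 and Vegfc held 1; over all 32851 promoter windows of this length the median was 3 copies, and 93.4% held at least 1. All 4 held GC boxes (3 in Flt1 and 2 in each of the others), which 32.7% of all windows held. G and C made up 70.4%, 61.6%, 59.2% and 71.6% of the bases of Flt1, Kdr, Vegfa and Vegfc. These are matches of letters and describe the windows only.

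Among the ligands, Vegfa was highest in fibroblast-like cells, at 268, 414 and 52.1 CPM (mean 245 ± 182). Pericyte-like cells followed with 58.5, 106 and 31.7 CPM and muscle-like cells with 53.2, 67.6 and 27.7 CPM. Both PLV fibroblast values lay above every other class in every library, but the mixed library's fibroblast value lay inside the range of the pericyte-like and muscle-like cells. At the low end were BEC-like cells, at 10.4, 15.7 and 6.91 CPM, below the 17.0 CPM of free RNA in the mixed library, and Schwann-like cells, at 4.23, 0 and 0 CPM. A Vegfa UMI was found in 195 of 401, 40 of 88 and 65 of 286 fibroblast-like cells. After each cell was thinned to 1500 UMIs, the shares were 27.6%, 28.6% and 6.82%, so the fibroblast-like cells of the mixed library stayed the lowest at equal depth.

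Vegfb, a ligand of Flt1, had its highest levels in LEC-like cells, at 56.4, 53.5 and 70.8 CPM (60.2 ± 9.28), and these 3 values did not overlap with the next class, the muscle-like cells at 34.2, 44.7 and 38.3 CPM. BEC-like cells were lowest on average, at 3.89 and 3.14 CPM in the PLV libraries, from a few UMIs each, and 21.4 CPM in the mixed library. Free RNA of the mixed library held 8.99 CPM of Vegfb. The endothelium of the lymphatic kind thus carried more Vegfb than that of the blood kind in every library.

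Vegfc, the main lymphangiogenic ligand, was found in the summed muscle-like class at a nearly even level, 21.6, 24.2 and 20.8 CPM (22.2 ± 1.80), though its clusters differed (below). BEC-like cells had a like mean but spread widely, at 39.5, 12.5 and 13.2 CPM, and fibroblast-like cells had 19.0, 11.1 and 12.4 CPM. LEC-like cells held 4 Vegfc UMIs in all, 1.75 CPM in PLV replicate 1 and 0 of 935147 and 0 of 833052 UMIs in the other libraries, where 3 UMIs would have been 3.21 and 3.60 CPM. Pericyte-like cells held 2 UMIs, both in PLV replicate 1 (10.6 CPM). Muscle-like, BEC-like and fibroblast-like cells thus held the ligand in every library, and it was near its floor in LEC-like cells.

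Vegfd, the other ligand of Flt4, was highest in fibroblast-like cells, at 70.0, 53.1 and 26.7 CPM (49.95 ± 21.8). Muscle-like cells had 20.7, 10.2 and 23.6 CPM and pericyte-like cells 10.6, 40.8 and 10.6 CPM. In each library the fibroblast-like value was above those of the muscle-like and pericyte-like cells, although the ranges of the classes overlapped between libraries. BEC-like cells had 3.24, 3.14 and 2.51 CPM, and immune cells had 0 UMIs in each library, where 3 UMIs would have been 4.87, 12.96 and 16.9 CPM.

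Pgf, a ligand of Flt1, was led by muscle-like cells, at 57.2, 58.7 and 16.7 CPM. Fibroblast-like cells had 13.4, 19.9 and 5.07 CPM, and pericyte-like cells 0, 48.9 and 15.8 CPM from 0, 6 and 6 UMIs. In the PLV libraries the muscle-like cells stood above all other classes; in the mixed library the pericyte-like cells were at nearly the same level. Schwann-like and immune cells had 0 Pgf UMIs in all 3 libraries, and LEC-like cells 1, 2 and 0 UMIs.

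**Figure D1:**
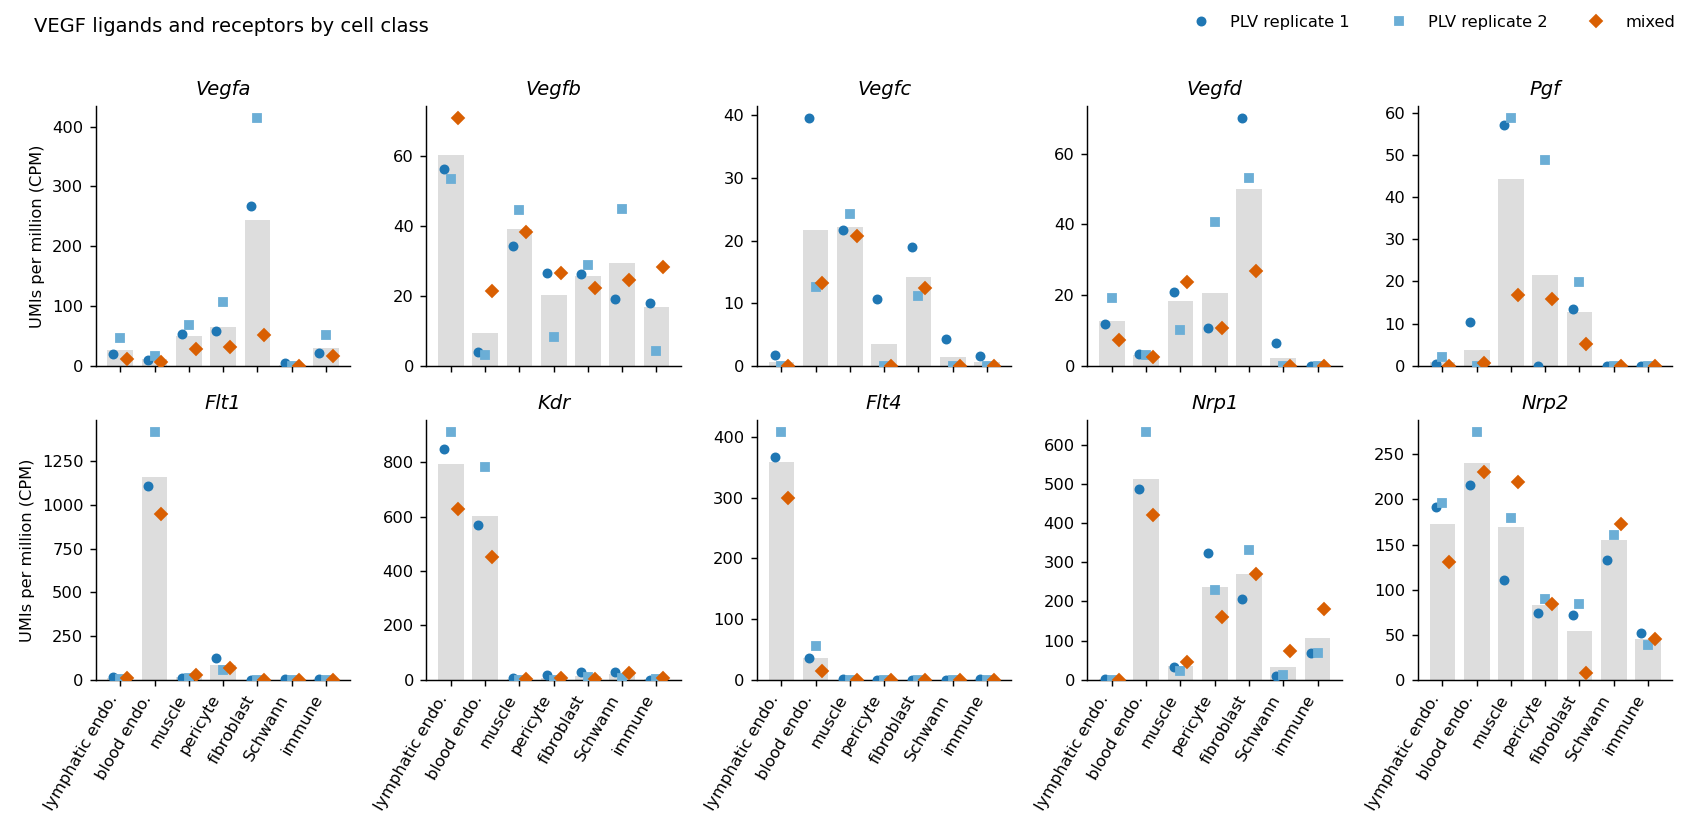
Level of each of the 10 VEGF genes in 7 cell classes, in CPM on a linear axis that starts at 0 and differs between panels. Grey bars are means of 3 libraries and points are single libraries; Flt1 and Flt4 each stand out in 1 kind of endothelium, while Vegfa, Vegfd and Pgf lie mainly in fibroblast-like or muscle-like cells.

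Of the receptors, Flt1 marked the blood endothelium, at 1111, 1414 and 949.9 CPM (1158 ± 236). The next class, pericyte-like cells, had 122, 57.1 and 68.6 CPM, and LEC-like cells had 16.2, 6.42 and 8.40 CPM, which is below the 55.0 CPM of free RNA in the mixed library. The pericyte-like value of the mixed library lay inside the 95% counting interval of that free RNA (41.4 to 71.6 CPM). No other class overlapped with the BEC-like cells in any library. An Flt1 UMI was found in 247 of 296, 64 of 68 and 145 of 180 BEC-like cells, and in 17 of 192, 5 of 72 and 4 of 54 LEC-like cells. BEC-like cells held 94.5% of all Flt1 UMIs of kept cells (mean of 3 libraries).

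Kdr, the main signalling receptor for VEGF-A, was carried by both kinds of endothelium. LEC-like cells had 849, 910.0 and 628 CPM (796 ± 149) and BEC-like cells 569.6, 784 and 454 CPM (602 ± 168). The LEC-like level was the higher of the pair within each library, but the ranges overlapped across libraries. All other classes were at or below 27.8 CPM, a value reached by the fibroblast-like cells of PLV replicate 1. After thinning to 1500 UMIs, 69.6%, 78.1% and 61.2% of LEC-like cells and 37.9%, 67.8% and 44.4% of BEC-like cells held a Kdr UMI (87.0%, 91.7% and 77.8%, and 60.8%, 88.2% and 66.1% before thinning).

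Flt4, the receptor of VEGF-C and VEGF-D, was highest in LEC-like cells at 368, 407 and 299 CPM (358 ± 54.9), while BEC-like cells had 36.3, 54.9 and 15.1 CPM (35.4 ± 19.9). The lowest LEC-like library was above the highest BEC-like library, and free RNA of the mixed library held 11.0 CPM, near the BEC-like value there. Fibroblast-like, Schwann-like and pericyte-like cells had 0 Flt4 UMIs in all 3 libraries; in fibroblast-like cells 3 UMIs would have been 1.54, 6.64 and 1.38 CPM. An Flt4 UMI was found in 137 of 192, 56 of 72 and 35 of 54 LEC-like cells, which is 71.4% (exact 95% Clopper-Pearson interval 64.4% to 77.6%), 77.8% (66.4% to 86.7%) and 64.8% (50.6% to 77.3%). It was found in 0 of 401, 0 of 88 and 0 of 286 fibroblast-like cells. Intervals and limits cover counting error only. After thinning the shares were 52.7%, 40.6% and 22.4%, against 4.02%, 6.78% and 2.11% of BEC-like cells. Both Kdr and Flt4 were detected in 127 of 192, 52 of 72 and 30 of 54 LEC-like cells, and both Flt1 and Kdr in 166 of 296, 58 of 68 and 112 of 180 BEC-like cells.

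Read as a mix, the receptors gave each endothelium its own profile with little spread between libraries. Of the Flt1, Kdr and Flt4 UMIs of LEC-like cells, 29.8%, 30.8% and 32.0% came from Flt4, while in BEC-like cells 2.11%, 2.44% and 1.06% did. Flt1 made up 64.7%, 62.8% and 67.0% of them in BEC-like cells and 1.31%, 0.485% and 0.899% in LEC-like cells. The shares compare cell classes and not the abundance of the receptors, since capture differs between genes.

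**Figure D2:**
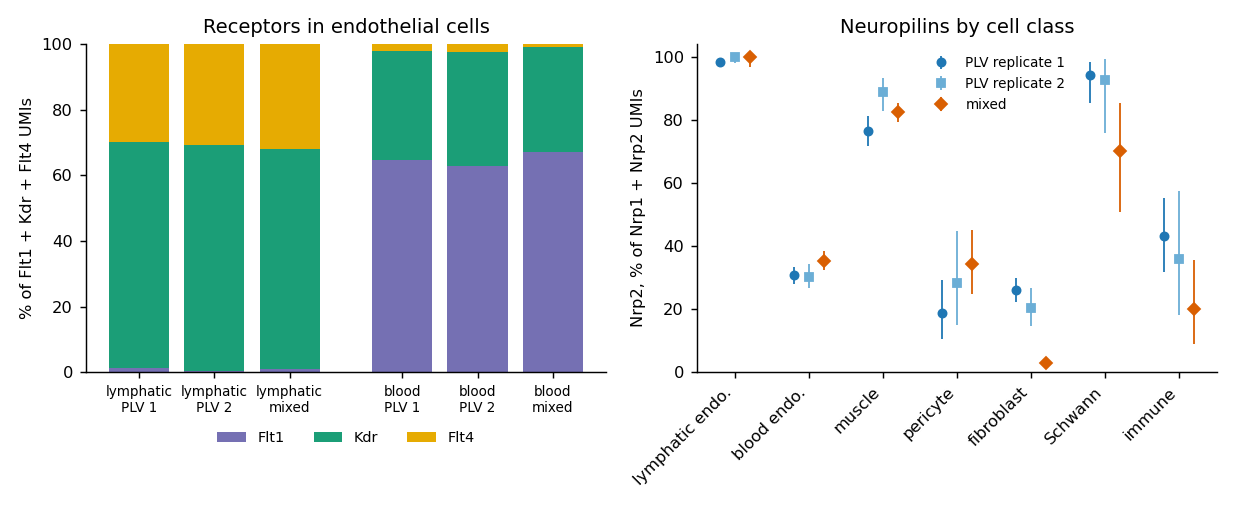
Left, the share of Flt1, Kdr and Flt4 among their summed UMIs (percent) in lymphatic and blood endothelial-like cells of each library; Flt4 took 29.8% to 32.0% in the lymphatic and 1.06% to 2.44% in the blood kind. Right, the share of Nrp2 among Nrp1 and Nrp2 UMIs (percent) in 7 cell classes, with points for libraries and bars for exact binomial 95% intervals that cover counting error only.

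The neuropilins separated the classes further. Nrp1, the co-receptor of VEGF-A, was highest in BEC-like cells at 489, 632 and 422 CPM (514 ± 107), followed by fibroblast-like cells at 206, 332 and 271 CPM and pericyte-like cells at 324, 228 and 161 CPM. LEC-like cells had 7 Nrp1 UMIs in PLV replicate 1 (3.06 CPM) and 0 of 935147 and 0 of 833052 in the other libraries, although free RNA of the mixed library held 67.0 CPM of Nrp1. Muscle-like cells were at 33.8, 23.0 and 46.5 CPM. Nrp1 thus had a range from its lowest class, the lymphatic endothelium, to its highest, the blood endothelium, with no overlap between these classes in any library.

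Nrp2 was spread more widely: BEC-like cells had 216, 274 and 231 CPM (240.2 ± 30.5), LEC-like cells 192, 196 and 131 CPM, muscle-like cells 110.4, 180.0 and 219 CPM and Schwann-like cells 133, 160.1 and 172 CPM. BEC-like cells did not overlap with LEC-like cells, but their lowest value (216 CPM) lay below the muscle-like value of the mixed library (219 CPM). The LEC-like, muscle-like and Schwann-like ranges overlapped each other. The lowest classes were pericyte-like cells (74.5, 89.7 and 84.5 CPM), fibroblast-like cells (72.1, 84.1 and 7.83 CPM) and immune cells (52.0, 38.9 and 45.1 CPM). Of all neuropilin UMIs, Nrp2 gave 98.4%, 100% and 100% in LEC-like cells and 76.6%, 88.7% and 82.5% in muscle-like cells. In BEC-like cells it gave 30.6%, 30.3% and 35.4%, and in pericyte-like cells 18.7%, 28.2% and 34.4%.

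To compare the kinds of endothelium, UMIs were summed per class and library, and the 21 sums were fitted together with edgeR's quasi-likelihood test, with the library as a block; a gene was called at a Benjamini-Hochberg adjusted p under 0.05 over 10519 genes. Between LEC-like and BEC-like cells 7 of 10 VEGF genes were called (4 higher and 3 lower in LEC-like cells); of all genes tested 21.2% were called (9.45% higher, 11.8% lower). Among receptors, Flt4 was higher in LEC-like cells by a log2 difference of 3.47 ± 0.28 (SE; adjusted p = 7.47e-08) and Flt1 was lower, at -6.70 ± 0.39 (adjusted p = 2.20e-11). Nrp1 was lower in LEC-like cells by a fitted -8.12 ± 0.59 (adjusted p = 5.08e-10), a size set largely by the 7 UMIs in the LEC-like cells. Kdr had a log2 difference of 0.39 ± 0.33 (adjusted p = 0.510) and Nrp2 -0.49 ± 0.36 (adjusted p = 0.435), so neither passed the test and neither was shown to be equal.

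The ligands differed between the endothelia too. Vegfc was lower in LEC-like cells (-4.48 ± 0.60, adjusted p = 4.24e-06, from 4 LEC-like UMIs against 90 in BEC-like cells) and Vegfb was higher (2.57 ± 0.37, adjusted p = 1.18e-05). Vegfd was higher, at 2.00 ± 0.56 (adjusted p = 0.0124), from 11.8, 19.2 and 7.20 CPM in LEC-like against 3.24, 3.14 and 2.51 CPM in BEC-like cells; without PLV replicate 1 (2.12, adjusted p = 0.0922) or without PLV replicate 2 (1.71, adjusted p = 0.0699) this call was lost. Vegfa was higher at 1.03 ± 0.35 (adjusted p = 0.0381), from 19.7, 46.0 and 10.8 CPM against 10.4, 15.7 and 6.91 CPM, and lost its call under 8 of the 13 other settings tried, at values from 0.76 (without PLV replicate 2) to 1.25 (no replicate block). In the mixed library both classes lay below free RNA for Vegfd (10.99 CPM) and for Vegfa (16.99 CPM). The BEC-like Vegfd values rest on a few UMIs in each library. Pgf did not pass (-2.55 ± 1.08, adjusted p = 0.114), but was called with no filter on low counts (adjusted p = 0.00783) and without the mixed library (0.0222), and turned to 0.62 without PLV replicate 1 (0.891). Pericyte genes were present beside these values: the 10 pericyte markers summed to 1908, 922 and 1103 CPM in BEC-like cells against 12248, 10183 and 5859 CPM in pericyte-like cells, and with endothelial cells that held 3 or more of these markers left out, the Vegfa and Vegfd differences were 1.96 and 2.43.

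The mural cells, muscle-like and pericyte-like, differed in 3 of 10 VEGF genes, where 12.6% of all genes were called (7.65% higher and 4.95% lower in muscle-like cells). Nrp1 was lower in muscle-like cells (-2.45 ± 0.42, adjusted p = 3.17e-04) and so was Flt1 (-1.98 ± 0.42, adjusted p = 0.00206). The latter call was lost without PLV replicate 1 (-1.48, adjusted p = 0.0707). The 5 general endothelial markers summed to 601, 277 and 275 CPM in pericyte-like cells against 205, 138 and 157 CPM in muscle-like cells. The 9 capillary markers summed to 4941, 4769 and 4378 CPM in pericyte-like against 509.9, 364 and 308 CPM in muscle-like cells, and the 8 fibroblast markers to 4861, 2201 and 3242 CPM against 1494, 1441 and 5023 CPM. The part of RNA from other cells in the Flt1 and Nrp1 levels was not tested, other than by leaving out mural cells with 3 or more endothelial markers, which gave -2.11 for Flt1. Vegfc was higher in muscle-like cells by a fitted 3.11 ± 0.82 (adjusted p = 0.0118); pooled over libraries, 118 muscle-like and 2 pericyte-like UMIs gave a ratio of 7.46 (95% counting interval 2.02 to 62.3). That call was lost without PLV replicate 2 (2.79, adjusted p = 0.108) and without the mixed library (2.04, adjusted p = 0.187). For Vegfa the log2 difference was -0.04 ± 0.34 and for Nrp2 1.29 ± 0.45 (adjusted p = 0.0681), and neither passed; Nrp2 was called under 4 alternatives, with adjusted p between 1.16e-04 and 0.261 over all of them.

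Each class was then set against the other 6 in the same fit, as the mean of their fitted log levels. Classes at or near 0 pull that mean down, so a gene can be called higher in a class whose CPM lies below the plain mean of the others. This was so for 3 of the calls below: Flt4 in BEC-like cells (35.4 against 59.8 CPM), Vegfa in muscle-like cells (49.5 against 62.96 CPM) and Flt1 in pericyte-like cells (82.7 against 198 CPM). BEC-like cells were higher in Vegfc, Flt1, Kdr, Flt4, Nrp1 and Nrp2 and lower in Vegfa and Vegfb (8 of 10; 25.7% of all genes were called). LEC-like cells were higher in Vegfb, Kdr and Flt4 and lower in Vegfc and Nrp1 (5 of 10; 28.6% of all genes). Muscle-like cells were higher in all 5 ligands and in Nrp2 and lower in Kdr (7 of 10; 36.1%), and fibroblast-like cells were higher in Vegfa, Vegfc, Vegfd, Pgf and Nrp1 and lower in Flt1 and Nrp2 (7 of 10; 33.7%). Pericyte-like cells were higher in Vegfa, Pgf, Flt1 and Nrp1 (4 of 10; 16.4%). Schwann-like cells were lower in Vegfa, Flt1 and Nrp1 (3 of 10; 31.5%) and immune cells in Vegfd, Kdr and Nrp2 (3 of 10; 40.2%). Leaving out a library, which leaves 2, ended 18 of these calls counted once per library left out. In 8 of the 18 at least 1 class had 0 UMIs of the gene in both libraries left. For pericyte-like Pgf, 2 of these 8, the values were 3.06 ± 1.33 and 2.89 ± 1.13, against 3.40 ± 1.04 with all libraries, and the rest had standard errors of 2.79 or more. The other 10 kept their direction, some at about the same size, as immune Nrp2 (-1.34 with all libraries, -1.55 without PLV replicate 1, -1.20 without PLV replicate 2) and muscle-like Vegfb (0.80, 0.73 and 0.66), and some not, as immune Kdr (-4.30, and -2.42 without PLV replicate 1) and muscle-like Nrp2 (0.84, and 0.36 without the mixed library). Without PLV replicate 1 the calls lost were Vegfa and Vegfb in BEC-like, Vegfc in LEC-like, Flt1 in fibroblast-like, Vegfb in muscle-like, Flt1 and Nrp1 in Schwann-like cells (1 of 10 left) and all 3 in immune cells, where 1 other gene was called. Without PLV replicate 2 they were Vegfb and Nrp2 in muscle-like, Vegfa and Pgf in pericyte-like (2 of 10 left), Nrp1 in Schwann-like and Nrp2 in immune cells. Without the mixed library they were Nrp2 in muscle-like and Pgf in pericyte-like cells. Because many classes were at or near 0, the sizes of the other contrasts are not given.

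By number of molecules, the ligands came mostly from non-endothelial cells among those captured. Fibroblast-like cells held a mean of 60.2% of Vegfa UMIs (51.8% to 69.9% over the libraries) and 48.5% of Vegfd UMIs (42.1% to 58.9%; 44.6% in the mixed library, as in its muscle-like cells), and muscle-like cells held 70.0% of Pgf and 44.7% of Vegfc UMIs. For Vegfc the order changed in PLV replicate 1, where BEC-like cells held 39.4% and muscle-like cells 31.0%. Vegfb was divided between LEC-like (37.7%, 23.2% to 45.9%) and muscle-like cells (31.7%, 25.9% to 37.0%). For the receptors, LEC-like cells held 91.2% of Flt4 UMIs, and Kdr UMIs were divided into 56.5% in LEC-like (41.4% to 66.8%) and 41.1% in BEC-like cells (30.2% to 57.2%), with more in BEC-like cells in the mixed library alone. Nrp1 lay mostly in BEC-like (55.2%, 45.4% to 64.6%) and fibroblast-like cells (31.2%, 24.04% to 39.9%), and Nrp2 in muscle-like (30.7%, 19.2% to 49.04%), BEC-like (29.7%, 26.0% to 33.5%) and LEC-like cells (25.1%, 9.94% to 34.3%). These shares follow the number of cells of each class that were captured, and are not shares in the tissue.

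**Figure D3:**
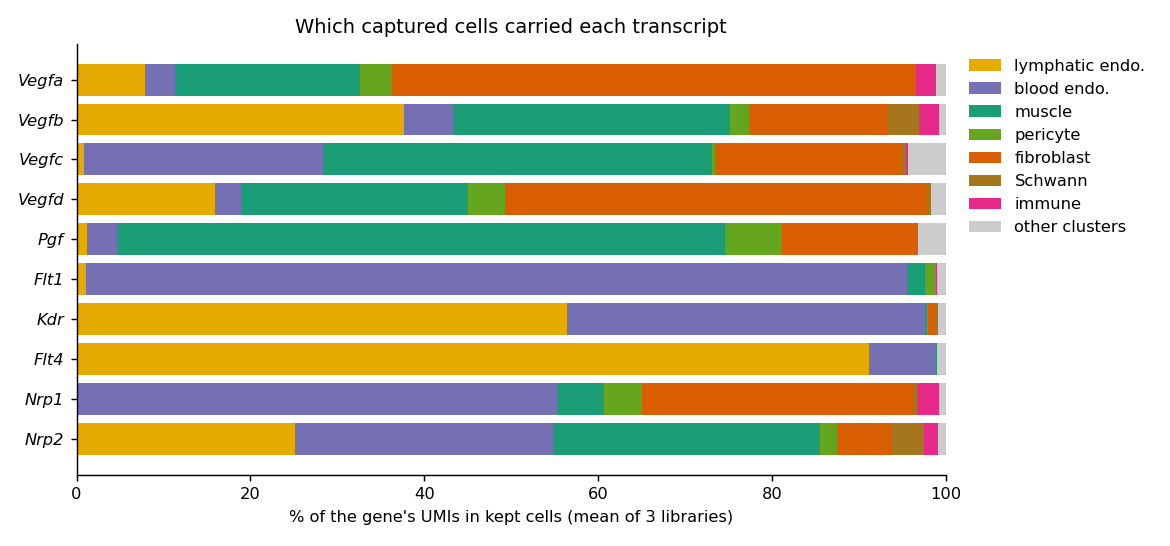
Share of each VEGF gene's UMIs held by the cell classes (percent of the gene's UMIs in kept cells, mean of 3 libraries), with unnamed and other clusters in grey. Flt1 and Flt4 lay almost wholly in endothelial cells, with 94.5% of Flt1 in the blood and 91.2% of Flt4 in the lymphatic kind, while Vegfa, Vegfd and Pgf lay mostly in fibroblast-like and muscle-like cells.

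Within the muscle-like class, Pgf and Nrp2 were held by different clusters. In every library 1 muscle-like cluster was led by Pln (phospholamban, the inhibitor of the calcium pump of the sarcoplasmic reticulum) and 1 had Hmcn2 among its leading genes, called Hmcn2-led here. The mixed library had a further cluster led by P2rx1, an ATP-gated ion channel. Pln-led cells had Pgf at 84.6, 99.6 and 41.7 CPM and 0 Nrp2 UMIs in each library, out of 1500534, 461731 and 312105 UMIs, where 3 UMIs would have been 2.00, 6.50 and 9.61 CPM. Hmcn2-led cells had the opposite: Nrp2 at 341, 438 and 327 CPM and 0 Pgf UMIs in each library, with limits of 4.17, 9.32 and 2.28 CPM. P2rx1-led cells held both, at 33.9 CPM of Pgf and 131 CPM of Nrp2. Free RNA of the mixed library held 6.996 CPM of Pgf and 51.0 CPM of Nrp2. The kinds of muscle cluster were picked out after the values were seen and were not tested; the VEGF genes had no part in the clustering.

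The other members given here differed less between Hmcn2-led and Pln-led cells. Vegfc was 43.1, 43.5 and 24.3 CPM in Hmcn2-led and 11.3, 10.8 and 9.61 CPM in Pln-led cells, with counting intervals that did not overlap in PLV replicate 1 (29.3 to 61.2 and 6.60 to 18.1). Nrp1 was 75.1, 37.3 and 61.6 CPM in Hmcn2-led and 13.995, 12.99 and 6.41 CPM in Pln-led cells. Vegfa was 61.3, 71.5 and 64.1 CPM in Pln-led and 36.1, 62.2 and 21.3 CPM in Hmcn2-led cells, and Vegfb was 40.7, 49.8 and 51.3 CPM against 20.9, 37.3 and 35.8 CPM. In the mixed library P2rx1-led cells had Vegfd at 47.2 CPM from 39 UMIs. Hmcn2-led and Pln-led cells there had 12.9 and 6.41 CPM, from 17 and 2 UMIs. Flt1 was 42.4 CPM in P2rx1-led cells, against 19.0 CPM in Hmcn2-led and 9.61 CPM in Pln-led cells of that library. Pln-led cells made up 67.1%, 49.1% and 13.7% of muscle-like cells, so the summed class was weighted differently in each library.

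**Figure D4:**
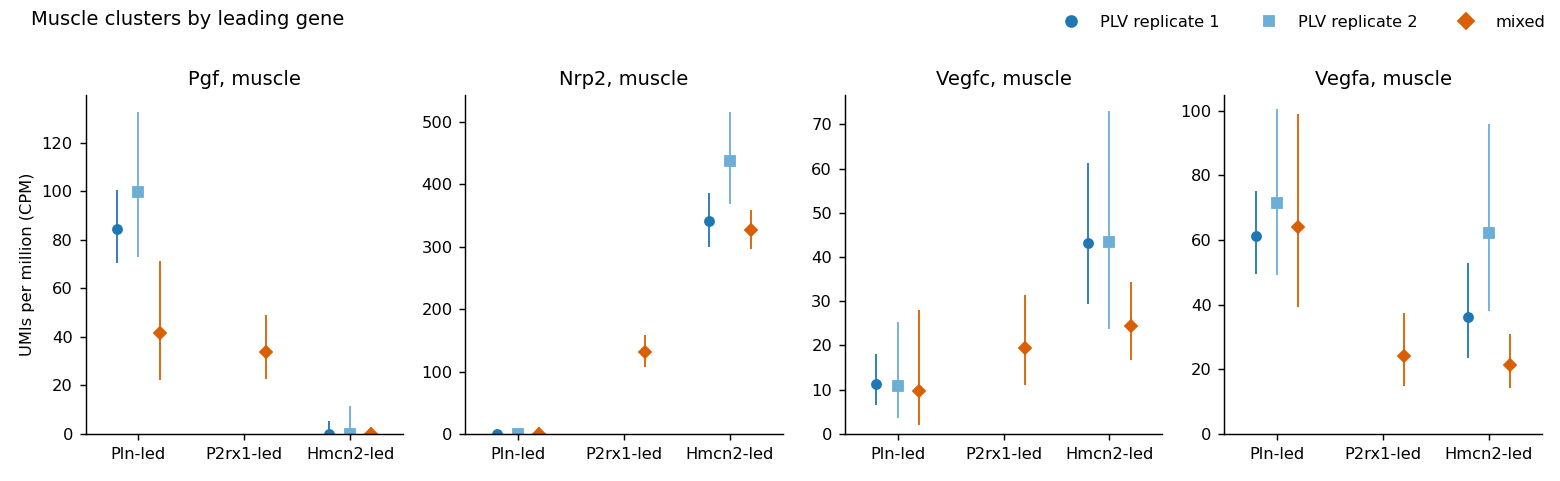
Levels of Pgf, Nrp2, Vegfc and Vegfa in the muscle-like clusters, by leading gene, in CPM; points are libraries and bars are exact Poisson 95% intervals that cover counting error only. Pgf lay at 0 in all Hmcn2-led and Nrp2 at 0 in all Pln-led clusters.

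Fibroblast-like cells were divided by markers into subsets in the PLV libraries. Cells with Cxcl14 and Scara5 markers (96 cells in replicate 1, 52 in replicate 2) had the most Vegfa, at 681 and 541 CPM, and the most Nrp1, at 611 and 504 CPM. Pi16 cells (117 and 16 cells), an adventitial kind, had Vegfa at 212 and 361 CPM and Nrp1 at 97.6 and 39.1 CPM. Cells with Col4a4 and Itgbl1 markers (15 and 20 cells) had little Vegfa (38.1 and 13.5 CPM, from 4 UMIs and 1 UMI) but Nrp2 at 314 and 339 CPM, against 16.1 and 39.9 CPM in the Cxcl14 cells. Vegfd was uneven, at 90.0 and 32.7 CPM in Cxcl14 cells, 44.5 and 137 CPM in Pi16 cells and 124 and 13.5 CPM in Col4a4 cells. With 16 Pi16 cells in PLV replicate 2 and no cluster of the mixed library named Pi16 or Cxcl14, the planned test between these subsets could not be made.

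Among the fibroblast-like clusters of the mixed library, the one led by Cxcl14 (95 cells) had Vegfa at 127 CPM and Nrp1 at 317 CPM. The largest, led by Col4a4 (139 cells), had Vegfa at 18.7 CPM, close to free RNA, Nrp1 at 325 CPM and Nrp2 at 2.07 CPM. In clusters led by Apod, Nrp2 was 442 CPM in PLV replicate 1 (41 cells), 361 CPM in PLV replicate 2 (14 cells) and 193 CPM in the mixed library (10 cells), and the 10 cells of the latter held 11 of the 17 Nrp2 UMIs of its fibroblast-like class.

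Receptors and neuropilins were also followed in blood endothelial subsets, without a test. Capillary-like cells, which could be named in PLV replicate 1 (103 cells), had Flt1 at 1698 CPM, Kdr at 1047 CPM, Nrp1 at 741 CPM and Flt4 at 55.0 CPM. Venular-like cells had Flt1 at 831, 887 and 684 CPM and Kdr at 309, 314 and 187 CPM, and their Nrp2 was 388, 505 and 342 CPM. The capillary-like cells of PLV replicate 1 had Nrp2 at 253 CPM, so only that library allows a comparison within itself. Arterial-like cells of PLV replicate 1 (19 cells) had Vegfc at 255 CPM from 16 UMIs, but those of PLV replicate 2 (13 cells) had 15.4 CPM from 1 UMI. A PLV replicate 1 cluster of 75 cells led by Sema3g and the arterial connexin Gja5 held 50 of the 61 Vegfc UMIs of its BEC-like cells, at 134 CPM.

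Among the immune cells of PLV replicate 1, the neuropilins were highest in the cluster led by Retnla, Lyz2 and class II genes (86 cells), which had Nrp1 at 116 CPM and Nrp2 at 97.3 CPM. The clusters led by T cell genes (55 cells) and by immunoglobulin genes (48 cells) had 0 Nrp2 UMIs and 3 and 0 Nrp1 UMIs. Immune cells of the other libraries formed a single cluster each, so no such split is given for them; as a class they had Nrp1 at 69.1 and 180 CPM and Nrp2 at 38.9 and 45.1 CPM.

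Of 39 further pathway genes, 32 could be tested between LEC-like and BEC-like cells, and 9 were higher and 8 lower in LEC-like cells, where 21.2% of all genes were called, 9.45% higher and 11.8% lower (median log2 difference -0.20, against -0.02 over all genes). The list was chosen with earlier results of these data known. Of 7 semaphorins tested, the other ligands of neuropilins, 3 were higher and 1 lower. Sema3d was 599, 814 and 438 CPM and Sema3a 89.3, 137 and 125 CPM in LEC-like cells with BEC-like means of 0.864 and 0.209 CPM. Sema3g was the reverse, at 270, 89.4 and 76.0 CPM in BEC-like cells and a mean of 0.146 CPM in LEC-like cells. Of the plexins, the signalling partners of neuropilins for semaphorins, Plxnd1 (-2.17 ± 0.24, adjusted p = 3.50e-07) and Plxna1 (-1.31 ± 0.33, adjusted p = 0.00426) were lower and Plxna4 (1.70 ± 0.34, adjusted p = 5.49e-04) was higher in LEC-like cells.

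Of 6 regulators of the response to low oxygen, which controls Vegfa, 1 was higher and 3 were lower in LEC-like cells. Epas1, a hypoxia-inducible transcription factor, was 126, 115 and 99.6 CPM in LEC-like and 1277, 1124 and 567 CPM in BEC-like cells (-3.06 ± 0.24, adjusted p = 2.45e-09), while the prolyl hydroxylase gene Egln3 was higher in LEC-like cells (3.36 ± 0.51, adjusted p = 4.10e-05). Of 8 receptor partners tested, 2 were higher and 1 lower: the phosphatase gene Ptprb was lower (-2.36 ± 0.37, adjusted p = 3.19e-05) and Nos3, the endothelial nitric oxide synthase, and Plcg1 were higher in LEC-like cells (1.10 and 0.97). Of 4 target genes tested, Rcan1 and Egr3 were higher (1.25 and 1.13) and 0 were lower. Of 3 testable genes of VEGF-C processing, Pcsk7 was lower (-1.38 ± 0.23, adjusted p = 6.41e-05). Ccbe1, a cofactor of VEGF-C activation, was found in fibroblast-like cells at 6.69, 33.2 and 24.0 CPM and was 0 in BEC-like and muscle-like cells.

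Between muscle-like and pericyte-like cells, 8 of 32 pathway genes were called, 2 with higher and 6 with lower levels in the muscle-like class, where 12.6% of all genes were called, 7.65% higher and 4.95% lower (median -0.01, against 0.11 over all genes). Sema3f was higher (2.45 ± 0.49, adjusted p = 0.00132), and Sema3c was called from 21.6, 21.7 and 24.5 CPM in muscle-like cells and 0 in pericyte-like cells. Lower were Pcsk5 (-2.55), Plxna1 (-1.48) and Plxnd1 (-1.22), along with Sema3g, Ptk2 and Cdh5, the endothelial cadherin (-3.08), whose level in pericyte-like cells was 53.2, 8.15 and 21.1 CPM.

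Genes whose summed levels were most like those of 9 VEGF genes were listed by Pearson's r of log2(CPM + 1) over the 21 sums, among 9620 genes, as a description; the sums share libraries and classes. Flt4 was matched most closely, by Megf6 (r = 0.968), Klhl4 (0.964) and Hoxd10 (0.963), and Kdr by Fgd5 (0.913), Nova2 (0.912) and Gpr182 (0.912). Flt1 was nearest to Fabp4 (0.894), Aqp1 (0.890) and Snrk (0.889). For the ligands, Vegfd was nearest to Kcnt2 (0.911), Pgf to Ror1 (0.900), Vegfa to Zfp385a (0.885) and Vegfc to Stc1 (0.862). Nrp1 was nearest to Cdk14 (0.865) and Nrp2 to Ctnna1 (0.827).

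The last comparison set the PLV libraries against the mixed library within a class, in a separate edgeR fit for each class with the lone mixed sum assumed to vary like the PLV sums. In fibroblast-like cells 3 of 8 tested VEGF genes were higher in PLV libraries and 0 were lower; 16% of all genes were called (5.81% higher, 10.2% lower). Vegfa was higher by 2.17 ± 0.38 (adjusted p = 4.79e-07), Nrp2 by 2.74 ± 0.44 (adjusted p = 3.77e-08) and Kdr by 2.98 ± 0.74 (adjusted p = 9.60e-04, from 27.8 and 11.1 against 1.84 CPM). DESeq2 called Vegfa and Nrp2, and gave no adjusted p for Kdr. It called 248 of 10594 genes in all, against 1694 with edgeR. In the mixed library Nrp2 (7.83 CPM) and Kdr lay below free RNA (51.0 and 34.0 CPM). Different clusters held most of this class, those led by Smpd3, Gpx3 and Inmt in PLV replicate 1, by C3 in PLV replicate 2 and by Col4a4 and Cxcl14 in the mixed library, and the 8 fibroblast markers summed to 42627 and 37421 CPM in PLV and 114494 CPM in the mixed library; their part in the result was not tested.

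In muscle-like cells 5 of 9 VEGF genes were called, and 15% of all genes (7.14% higher, 7.9% lower): Pgf (1.55 ± 0.29, adjusted p = 2.42e-04) and Vegfa (0.85 ± 0.28, adjusted p = 0.0334) were higher in PLV libraries, and Flt1 (-1.41 ± 0.36, adjusted p = 0.00549), Nrp2 (-0.86 ± 0.25, adjusted p = 0.0174) and Nrp1 (-0.86 ± 0.27, adjusted p = 0.0258) were lower. In the mixed library the levels of Flt1 (25.7 CPM) and Nrp1 (46.5 CPM) lay below its free RNA (55.0 and 67.0 CPM). All 5 were lost with DESeq2, which called 212 of 10806 genes in all against 1626 with edgeR, and with cells limited to 10% mitochondrial UMIs, where 0 of 10784 genes were called and 4 of the 9 VEGF genes had an unadjusted p under 0.05. The log2 differences were then 1.56 and 1.57 for Pgf, 0.88 and 0.88 for Vegfa, -1.41 and -1.44 for Flt1, -0.92 and -0.89 for Nrp1 and -0.84 and -0.86 for Nrp2, close to those above. The Pln-led share of muscle-like cells was 67.1%, 49.1% and 13.7%, and its part in these calls was not tested. Within the Hmcn2-led cells Nrp2 was 341 and 438 CPM in PLV and 327 CPM in the mixed library, so the direction of the class was not seen in that cluster. Flt1 in Hmcn2-led cells was 25.02 and 24.9 CPM in PLV against 19.0 CPM in the mixed library, also not in the direction of the class, and 4.67 and 2.17 against 9.61 CPM in Pln-led cells, from 7, 1 and 3 UMIs. Nrp1 was 75.1 and 37.3 against 61.6 CPM in Hmcn2-led cells. In Pln-led cells Nrp1 was 13.995 and 12.99 against 6.41 CPM, from 21, 6 and 2 UMIs, not in the direction of the class. Vegfa was 61.3 and 71.5 against 64.1 CPM in Pln-led and 36.1 and 62.2 against 21.3 CPM in Hmcn2-led cells. Pgf in Pln-led cells was 84.6 and 99.6 CPM against 41.7 CPM, in the direction of the class. P2rx1-led cells were found in the mixed library alone, where they held 35 of the 63 Flt1 UMIs of muscle-like cells (42.4 CPM).

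BEC-like cells had 2 of 9 VEGF genes called, where 2.89% of all genes were (1.31% higher, 1.58% lower): Flt4 was higher in PLV libraries (1.38 ± 0.39, adjusted p = 0.0400, from 36.3 and 54.9 against 15.1 CPM) and Vegfb was lower (-2.67 ± 0.64, adjusted p = 0.0131). Neither was called at 1000 or more UMIs per cell (Vegfb -2.67, Flt4 1.40) or without endothelial cells that held pericyte markers (-3.03 and 1.83), where 22 and 0 genes were called in all, against 296. DESeq2 gave -2.74 and 1.43 with no adjusted p for either gene. Vegfb averaged 3.51 CPM in BEC-like cells of the PLV libraries, from a few UMIs in each, against 21.4 CPM in the mixed library. LEC-like cells had 0 of 7 called with edgeR, where 0.266% of all genes were called, and 0 at an unadjusted p under 0.05. DESeq2 also called 0, and gave an adjusted p for 3 of them. The log2 differences were 0.16 ± 0.28 for Flt4, 0.27 ± 0.30 for Kdr, 0.35 ± 0.28 for Nrp2 and 0.35 ± 0.77 for Flt1. For the ligands they were 1.24 ± 0.61 (Vegfa), 0.81 ± 0.72 (Vegfd) and -0.57 ± 0.27 (Vegfb). Of the pathway genes, 8 of 28 were higher and 2 lower in PLV fibroblast-like cells (5.81% and 10.2% of all genes), 6 of 27 were higher in PLV muscle-like cells with 0 lower (7.14% and 7.9%), and 2 of 27 were higher in BEC-like cells with 0 lower (1.31% and 1.58%). The 2 in BEC-like cells were Dll4, a Notch ligand that VEGF induces (140.0, 141 and 27.6 CPM), and Esm1 (29.2, 21.9 and 6.28 CPM).

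**Figure D5:**
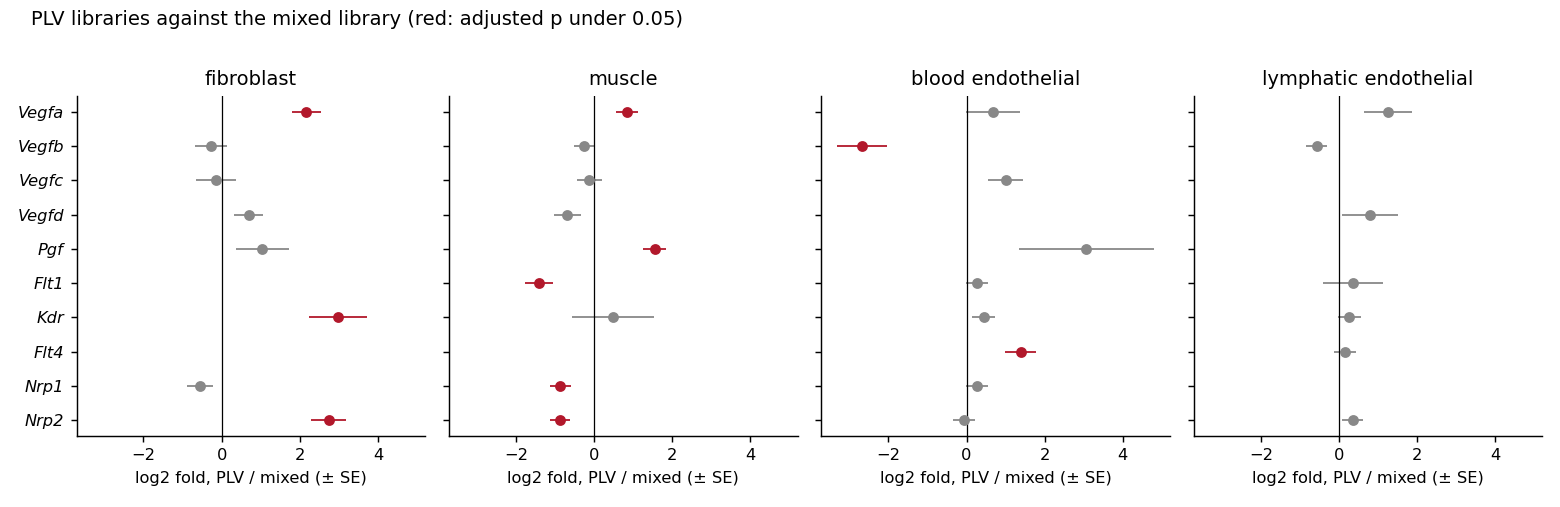
Log2 difference of each VEGF gene, PLV over mixed, within 4 cell classes, with bars for the standard error and red for an adjusted p under 0.05. In fibroblast-like cells Vegfa, Kdr and Nrp2 were higher in PLV, in muscle-like cells 2 genes were higher and 3 lower, and in lymphatic endothelial-like cells 0 passed.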

How the data were processed

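Popliteal vessel cells of 3 libraries were measured by 3′ single-cell RNA sequencing. The deposited matrices hold UMI counts per gene and cell that the authors made with Cell Ranger, per the file headers (6.1.2 for PLV, with called cells; 4 for the mixed library, with all barcodes), on GRCm38, per the submitters' processing notes. The labels do not separate the vessels of the mixed library, so it is 1 sample; its hashtag library was not analysed here. The PLV replicates are separate pools of mice.

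Cells with at least 500 UMIs, 300 genes, at most 15% mitochondrial and at most 20% haemoglobin UMIs were kept, and predicted doublets (scrublet in scanpy 1.11.5; 10, 3 and 3 cells) were removed. Each library was clustered on its own (2000 variable genes without the VEGF and pathway genes, 50 components, 15 neighbours, Leiden resolution 1), and clusters were named from 3 or more markers at least 2-fold higher. Class sums of at least 20 cells were tested with edgeR 4.0.16, with the library as a block because all classes of a library come from the same mice; PLV was compared with mixed in a separate fit of the 3 sums of each class. Genes were filtered with filterByExpr and scaled by TMM, and an SE is the log2 difference divided by the square root of its F statistic. Named genes are all 10 members, the 2 or 3 called pathway genes with the largest change per role, and the 3 genes most alike in pattern. DESeq2 1.42.0, other filters, clusterings, scalings and left-out libraries were alternatives; leaving out cells with markers of both endothelial and mural kinds was added after seeing the data. The edgeR step was tested on simulated data. The members and lists were chosen with earlier results of these data known. A planned test between fibroblast subsets could not be run. The pattern match of 1 gene and 1 split of clusters are not reported here.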

Additional observations from a re-analysis of the deposited data

Results flagged for a closer look

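The difference between PLV and mixed libraries was compared between cell classes with edgeR's interaction test, adjusted over 12475 genes. The mixed arm is 1 library with no spread of its own, so these p-values take their spread from the PLV sums and describe these libraries. For Nrp2 the difference in muscle-like minus that in fibroblast-like cells was -3.69 (log2; adjusted p = 3.55e-06), with fibroblast-like cells higher in PLV libraries and muscle-like cells lower. Clusters took different shares of the muscle-like class in each library: Pln-led cells, with 0 Nrp2 UMIs, were 67.1%, 49.1% and 13.7% of muscle-like cells, and within Hmcn2-led cells Nrp2 was 341 and 438 CPM in PLV against 327 CPM. For Nrp2 it was also larger in fibroblast-like than in BEC-like cells by 2.86 (adjusted p = 1.34e-04) and than in LEC-like cells by 2.39 (adjusted p = 0.00330). Different clusters held most of the fibroblast-like class too (Smpd3-, Gpx3-, Inmt- and C3-led in PLV, Col4a4- and Cxcl14-led in the mixed library), and its mixed Nrp2 level of 7.83 CPM came from 17 UMIs, 11 of them in 10 Apod-led cells; their part was not tested. For Vegfa it was smaller in muscle-like than in fibroblast-like cells, by a log2 value of -1.26 (adjusted p = 0.0448). For Vegfb, which was lower in BEC-like cells of PLV libraries, it differed by 2.42 between fibroblast-like and BEC-like cells. Between muscle-like and BEC-like cells it differed by 2.39. Both Vegfb differences rest on BEC-like cells that held only a few Vegfb UMIs in each PLV library.

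Clusters left without a name, which entered no comparison, also held VEGF receptor RNA. A cluster of 60 cells in PLV replicate 2, with a median of 986.5 UMIs per cell and led by Cytl1, Gm10800 and Gkn3, had Kdr at 463 CPM, Flt1 at 351 CPM, Flt4 at 168 CPM, Nrp1 and Nrp2 each at 98.2 CPM and Vegfc at 56.1 CPM from 4 UMIs (95% counting interval 15.3 to 144), where 3 UMIs give 42.1 CPM. A cluster of 30 cells in the mixed library, led by Ints6l and Slco1c1, had Nrp2 at 112 CPM from 5 UMIs (36.3 to 261), where 3 UMIs give 67.1 CPM.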

How the results depend on the processing

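Of 57 calls of a gene in a comparison, 32 were kept under every alternative that gave a value, 25 were lost under at least 1, and 0 changed direction. Against the other classes, muscle-like Nrp2 was lost with DESeq2 (0.75, adjusted p = 0.0961) and at most 10% mitochondrial UMIs (0.75, 0.0581). At least 1000 UMIs ended the calls of muscle-like Vegfb (0.65, 0.0642), pericyte-like Vegfa (1.24, 0.0920) and fibroblast-like Flt1 (-4.46). Leaving out cells with both endothelial and mural markers ended that of LEC-like Vegfc (-2.24). For PLV against mixed, the 2 calls in BEC-like cells became 0 with at least 1000 UMIs per cell, 1 with at most 10% mitochondrial UMIs, 0 without cells with markers of both endothelial and mural kinds and 0 with DESeq2, which gave neither gene an adjusted p; the 5 in muscle-like cells became 3, 0 and 0 with the first, second and last of these, and 4 at Leiden resolution 2 (Nrp1 -0.66, adjusted p = 0.0980; -0.54 with at least 1000 UMIs). Calls over all genes fell too, from 296 to 22, 241, 0 and 27 in BEC-like cells and from 1626 to 1604, 0 and 212 in muscle-like cells. At Leiden resolution 2 they rose instead, to 1690 of 10718 in muscle-like cells. The 3 immune calls became 5 at Leiden resolution 0.5 and 5 with no filter on low counts (4306 of 10792 and 4926 of 19989 genes in all, against 4232 of 10519). At Leiden resolution 0.5 PLV replicate 1 had no pericyte-like class, so the classes set against immune cells changed as well. Without the library as replicate block, 2 of the 4 pericyte calls were left, 5 of the 7 muscle-like (without Vegfa, adjusted p = 0.0907, and Vegfb, 0.0745), 7 of the 8 BEC-like (without Vegfa, 0.0596), and LEC-like against BEC-like gave 6. Over all genes the calls without the block were 1408 in pericyte-like (1728 with it) and 3029 in muscle-like cells (3799). They were 2112 in BEC-like cells (2700) and 1728 in LEC-like against BEC-like cells (2231). With 1 library left out, the counts ran from 1 to 3 (Schwann-like), 1 to 3 (immune), 2 to 4 (pericyte-like), 6 to 8 (BEC-like), 4 to 6 (LEC-like), 5 to 7 (muscle-like), 5 to 8 (LEC-like against BEC-like) and 2 to 3 (muscle-like against pericyte-like), and stayed at 7 in fibroblast-like cells. Without PLV replicate 1 or 2 the calls over all genes fell. In the same order they went from 3315 to as few as 1712, 4232 to 2588, 1728 to 1093 and 2700 to 1780. The rest went from 3013 to 1962, 3799 to 2414, 2231 to 1489 and 1326 to 627, and from 3549 to 2403 in fibroblast-like cells. Without the mixed library they rose in LEC-like (3054), LEC-like against BEC-like (2393) and muscle-like against pericyte-like cells (1339), and fell in the others. Uncalled log2 values changed sign. With 1 library left out, Pgf in LEC-like against BEC-like cells ran from -3.87 (without PLV replicate 2) to 0.62 (without PLV replicate 1). In muscle-like against pericyte-like cells Vegfa ran from -0.20 (without PLV replicate 1) to 0.13 (without PLV replicate 2) and was 0.0011 with no filter and 0.022 with doublets kept, Vegfd ran from -0.18 (without the mixed library) to 1.32 (without PLV replicate 2), and Flt4 was -0.54 with DESeq2. Muscle-like against pericyte-like Nrp2 was newly called with no filter (adjusted p = 1.16e-04), at least 1000 UMIs (0.0306), doublets kept (0.0411) and without the mixed library (0.0337). The cause was not tested. Muscle-like against pericyte-like had no value at Leiden resolution 0.5 or at 10% mitochondrial UMIs, where PLV replicate 1 had no pericyte-like class, and the alternatives of the fibroblast subset test were not run. Depth limits low genes in pericyte-like, Schwann-like and immune cells.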
